A study of Mus musculus with 72 samples.

Results

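The major urinary proteins (MUPs) were followed through the liver of mice given tertiary butyl alcohol (TBA). They were taken as every probe of the liver count table whose gene symbol was Mup3, Mup7, Mup15, Mup16, Mup19, Mup20 or Mup21. This gave 12 probes of 7 symbols, of 30146 probes for 21400 symbols in the table, and all 12 passed the filter on low counts that left 17050 probes for testing. Mup19 had 4 probes, Mup3 and Mup7 had 2 each, and Mup15, Mup16, Mup20 and Mup21 had 1 each. Each probe is named by its symbol and the number the table gives it, and each was analysed apart.

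MUPs are small secreted carriers of the lipocalin family. The liver makes them, the kidney passes them into urine, and there they bind volatile pheromones and release them slowly. In mouse liver they are known as targets of growth hormone acting through the transcription factor STAT5b, and as genes expressed more in males than in females. Mup7, Mup15, Mup16 and Mup19 belong to the near-identical genes at the centre of the cluster. Mup3, Mup20 and Mup21 are among the more divergent ones, and Mup20 encodes darcin, the urinary pheromone by which females recognise males.

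The animals were female B6C3F1 mice, a cross of C57BL/6 and C3H mice, 9 to 11 weeks old and housed singly. TBA, an alcohol used as a solvent and fuel additive, was dissolved in their drinking water. The 8 groups, each of 9 animals, combined a concentration of 0, 10, 20 or 40 mg/mL with an exposure lasting 14 or 28 d. The series concerns whether thyroid follicular tumours arise through an anti-thyroid mode of action. Liver scraped from formalin-fixed, paraffin-embedded sections was measured with TempO-Seq, in which pairs of short probes are ligated on their RNA target and counted. All groups shared the strain, the sex and the drinking-water route, and the controls received water with 0 mg/mL TBA.

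The 7 genes lie on the minus strand of mouse chromosome 4 in GENCODE vM21 (GRCm38), from Mup7 at chr4:60066469-60070475 to Mup21 at chr4:62147932-62150863. Mup15 spans chr4:61435790-61439743, Mup16 chr4:61515592-61519531 and Mup19 chr4:61778324-61782269. Mup20 spans chr4:62050234-62054158 and Mup3 chr4:62083476-62087342. All have an annotated coding sequence, and 22 genes of this annotation are named Mup followed by a number. The start of each coding sequence is shown because it shows how alike the targets of the probes are. Each run covers the part aligned to the first 120 coding bases of Mup7, and capitals mark bases that differ from Mup7 or have no counterpart in it.
Mup7: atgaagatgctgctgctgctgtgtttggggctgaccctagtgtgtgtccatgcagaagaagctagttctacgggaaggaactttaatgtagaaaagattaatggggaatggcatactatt
Mup15: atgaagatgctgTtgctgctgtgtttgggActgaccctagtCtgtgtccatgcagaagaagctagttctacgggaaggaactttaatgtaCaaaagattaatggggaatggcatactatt
Mup16: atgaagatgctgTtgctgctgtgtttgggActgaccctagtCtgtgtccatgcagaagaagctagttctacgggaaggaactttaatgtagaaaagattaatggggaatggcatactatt
Mup19: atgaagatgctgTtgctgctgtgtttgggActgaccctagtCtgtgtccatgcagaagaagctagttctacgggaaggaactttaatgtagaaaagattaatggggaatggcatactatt
Mup20: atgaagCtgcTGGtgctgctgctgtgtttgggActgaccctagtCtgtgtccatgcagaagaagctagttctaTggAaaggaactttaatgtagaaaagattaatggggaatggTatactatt
Mup3: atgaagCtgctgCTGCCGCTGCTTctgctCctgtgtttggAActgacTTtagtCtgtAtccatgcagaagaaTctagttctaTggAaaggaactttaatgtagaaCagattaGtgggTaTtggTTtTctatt
Mup21: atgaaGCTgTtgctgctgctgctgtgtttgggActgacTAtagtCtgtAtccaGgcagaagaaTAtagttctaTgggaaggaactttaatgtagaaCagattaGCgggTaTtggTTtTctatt

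Over the whole coding sequence Mup16 and Mup19 differed at 1 of 543 aligned bases, Mup15 and Mup19 at 3, and Mup7 and Mup19 at 6. Mup3 and Mup21 were 96.3% identical to each other, and 84.7% and 84.9% identical to Mup19. Mup20 was 91.3% identical to Mup19 and 88.1% identical to Mup3. Of the 50-base windows of the Mup15 and Mup19 transcripts, 100% occurred letter for letter in a transcript of another Mup gene or pseudogene. For Mup7 this share was 96.4%, for Mup16 90.7%, for Mup20 50.1%, for Mup21 19.3% and for Mup3 15.6%. A probe named for Mup7, Mup15, Mup16 or Mup19 may therefore report transcripts of several of these genes, and the sequences of the probes themselves were not used here. Windows of Mup20 occurred in transcripts of 24 other Mup symbols, so its probe may also report more than Mup20. The reference is the C57BL/6 sequence, so these shares do not describe the C3H alleles.

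**Figure D1:**
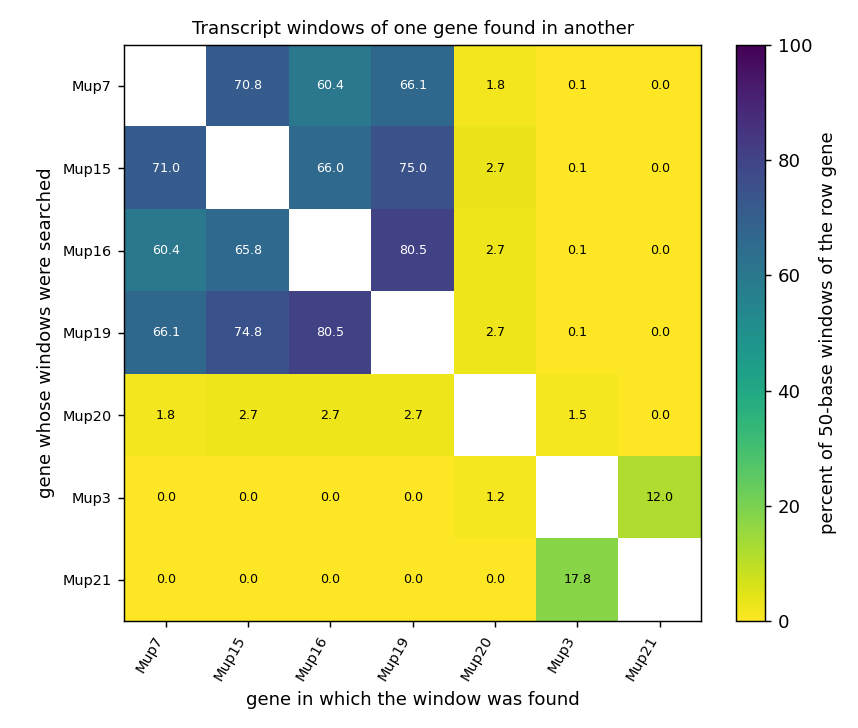
Percent of the 50-base windows of the transcript of each gene (rows) found letter for letter in a transcript of another gene (columns). Mup7, Mup15, Mup16 and Mup19 shared 60.4% to 80.5% of windows with each other, and Mup3 and Mup21 shared 12% and 17.8%.

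Libraries held 7.77 to 12.7 M counts in the 71 kept. Animals are numbered here in the order of their libraries within each group. The library of the 40 mg/mL, 14 d animal numbered 5 held under 100000 counts and was left out, so that group has n = 8. The libraries also differed in a scaling factor (the TMM factor of edgeR), from 0.792 to 1.58. This factor corrects for abundant RNAs taking an unequal share of the reads, and a high factor marks a library where they take a smaller share. It was above 1.25 in 11 libraries, 4 of them among the 8 at 40 mg/mL for 14 d and none among the 14 d controls. The tissue label was checked on 11 measured hepatocyte markers of 12 listed, such as Alb and Ttr: none was at 0 in any group. Their summed CPM (TMM-scaled counts per M) was 43503 to 61886 in the 14 d controls and 11688 to 43770 at 40 mg/mL for 14 d, where 5 of the 11 were lower and none higher. Of the markers of 10 other cell types, 1 of 6 endothelial and 1 of 8 stellate and fibroblast genes were lower there and 1 of 3 erythroid genes was higher. At 28 d none of the marker genes passed at 20 or 40 mg/mL. Nothing in the labels ties libraries of different groups together, and in bulk tissue fewer cells of a type and less RNA per cell cannot be told apart.

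The 12 probes took a mean of 2.44% ± 0.276 (SD, n = 9) of all counts in the 14 d controls and 2.47% ± 0.34 (SD, n = 9) in the 28 d controls. Levels are comparable between groups for 1 probe, not between probes. The 2 Mup7 probes averaged 44459 and 12.6 counts per library, 3523-fold apart, and the 4 Mup19 probes averaged 64305, 26904, 440 and 12.1 counts. From the most to the least counted the order was Mup19_29560, Mup7_82401, Mup3_29559, Mup19_82400, Mup3_80493, Mup15_31804, Mup16_29047, Mup19_68456, Mup20_63122, Mup21_56221, Mup7_31616 and Mup19_32084.

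After 14 d at 40 mg/mL the MUPs fell: 11 of the 12 probes were lower than in the 14 d controls by edgeR's quasi-likelihood test at a Benjamini-Hochberg adjusted p under 0.05, and none was higher. Over all probes tested, 3.68% were lower in this comparison. The median log2 fold change was -2.0 over the 12 probes and 0.06 over all probes. Every one of the 7 symbols held at least 1 lower probe, and after the counts of a symbol's probes were summed all 7 symbols were lower.

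The 5 abundant probes named for the near-identical genes fell without overlap with the controls. How many of all probes tested separated from the controls in this way was not counted, here or for the probes below. Mup19_29560 ranged from 6528 through a median of 8782 to 10234 CPM in the controls, and from 1528 through 2479 to 5198 CPM at 40 mg/mL. All 8 treated animals lay below all 9 controls, and the fitted log2 fold change was -1.59 ± 0.24 (SE; edgeR adjusted p = 1.52e-05). Mup7_82401 ranged from 5108 through 6542 to 7532 CPM in the controls and from 422 through 1242 to 2799 CPM at 40 mg/mL. The groups did not overlap here either, with a log2 fold change of -2.23 ± 0.38 (edgeR adjusted p = 9.99e-05). Mup19_82400 went from a control range of 3196 to 5103 CPM (median 4321) to 285 to 1536 CPM (median 779), again without overlap, and its log2 fold change was -2.27 ± 0.40 (edgeR adjusted p = 0.000155).

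Mup15_31804 lay between 986 and 1885 CPM in the controls (median 1612) and between 164 and 776 CPM at 40 mg/mL (median 300.05). Its log2 fold change was -1.97 ± 0.28 (edgeR adjusted p = 6.19e-06). Mup16_29047 lay between 259 and 433 CPM in the controls (median 364) and between 47.4 and 156 CPM at 40 mg/mL (median 79.8), with a log2 fold change of -2.02 ± 0.28 (edgeR adjusted p = 5.86e-06). In both probes all 8 treated animals lay below all controls.

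The divergent members fell as well. Mup20_63122, the probe named for the darcin gene, ranged from 31.9 through 36.3 to 45.7 CPM in the controls and from 5.04 through 10.4 to 28.0 CPM at 40 mg/mL. The groups did not overlap, and the log2 fold change was -1.56 ± 0.31 (edgeR adjusted p = 0.000939). Mup21_56221 was counted little: 1.96 to 6.29 CPM in the controls (median 3.52) and 0 to 1.90 CPM at 40 mg/mL (median 0.836), with a log2 fold change of -2.04 ± 0.45 (edgeR adjusted p = 0.00208). All 8 treated animals were below all controls for this probe too.

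The 2 Mup3 probes fell too, with ranges that overlapped the controls. Mup3_29559 ranged from 2861 through 4317 to 5812 CPM in the controls and from 486 through 1464 to 3608 CPM at 40 mg/mL. Of the 8 treated animals, 7 lay below all controls, and the log2 fold change was -1.30 ± 0.25 (edgeR adjusted p = 0.000532). Mup3_80493 ranged from 1276 through 1691 to 2034 CPM in the controls and from 157 through 408 to 1370 CPM at 40 mg/mL. Here 6 of 8 lay below all controls, with a log2 fold change of -1.33 ± 0.31 (edgeR adjusted p = 0.00401).

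The remaining 3 probes, all named for the near-identical genes, stood apart from their abundant namesakes in level. Mup7_31616 and Mup19_32084 had medians of 15 and 12 counts in the 14 d controls, and of 1 and 2.5 counts at 40 mg/mL, where 7 of 8 animals lay below all controls for either probe. Their edgeR adjusted p were 0.0421 and 0.0335. Leaving out 1 library took Mup7_31616 past 0.05 in 11 cases, up to an adjusted p of 0.108, and Mup19_32084 in 8 cases, up to 0.091. Mup19_68456 was the probe that did not pass: 25.7 to 68.6 CPM in the controls (median 36.8) against 11.1 to 99.2 CPM at 40 mg/mL (median 29.4), with a log2 fold change of -0.08 ± 0.40 (edgeR adjusted p = 0.952). Its groups overlapped over most of their range.

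**Figure D2:**
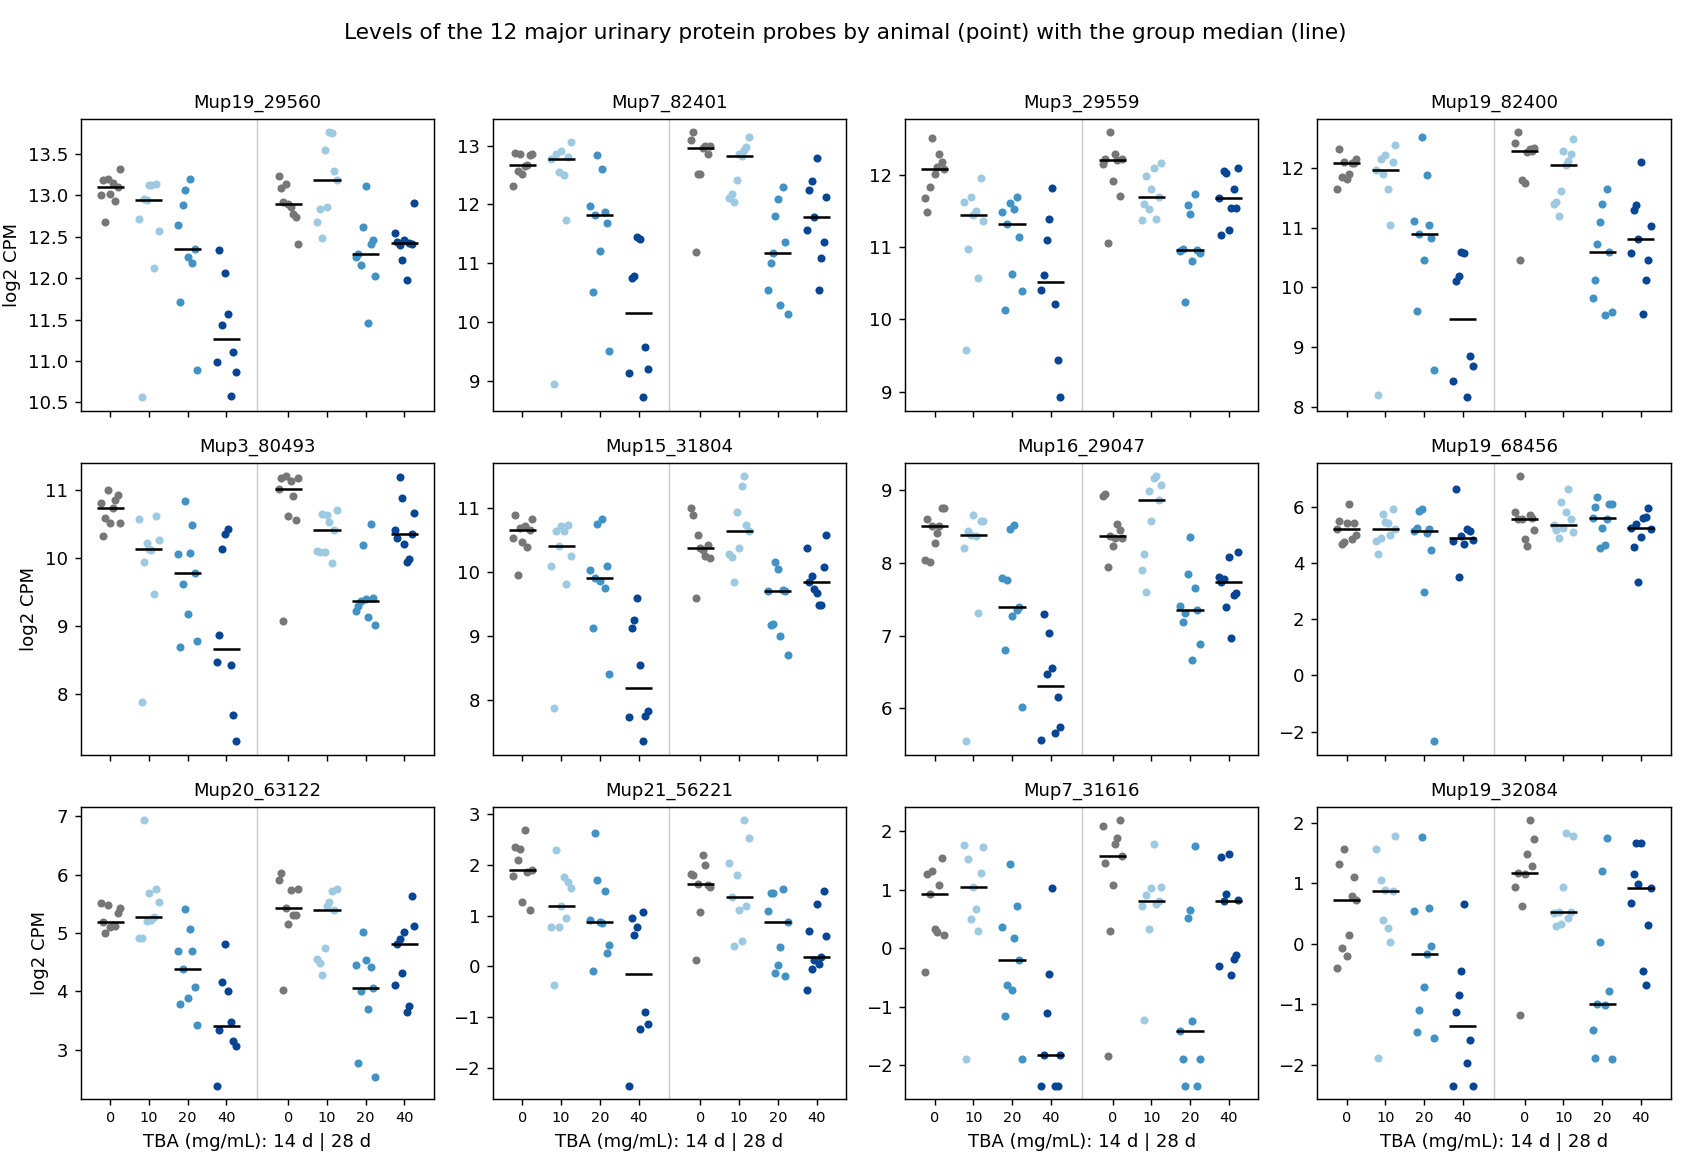
Level of each of the 12 probes as log2 CPM (prior count 2) in every animal, by TBA dose in mg/mL at 14 d (left of the grey line) and 28 d (right). At 40 mg/mL for 14 d all 8 animals sit below all controls for Mup19_29560, Mup7_82401, Mup19_82400, Mup15_31804, Mup16_29047, Mup20_63122 and Mup21_56221, while Mup19_68456 overlaps its controls. The share of all probes that separated in this way was not counted.

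The count of 11 moved with the scaling factor of the libraries. Across the 71 libraries the Pearson correlation of log2 CPM with the log2 factor was -0.85 for Mup7_82401 and Mup19_82400, -0.58 for Mup19_29560 and 0.04 for Mup19_68456, given as a description, and within groups (after group means were subtracted) -0.79 for Mup7_82401 and -0.37 for Mup19_29560. CPM were already divided by this factor, so part of a negative correlation is built in. It was not computed over all probes for comparison. With the log2 factor as a covariate 6 of the 12 probes were lower at 40 mg/mL for 14 d, and without the 11 libraries of factor above 1.25 also 6. The kept calls also shrank with the covariate, Mup7_82401 to -1.11 and Mup19_82400 to -1.08 (edgeR adjusted p = 0.013 and 0.0238). The 6 were the same probes in both settings: Mup19_29560, Mup7_82401, Mup19_82400, Mup15_31804, Mup16_29047 and Mup21_56221. With the covariate, Mup3_29559 had a log2 fold change of -0.82, Mup20_63122 of -0.76 and Mup3_80493 of -0.55 (edgeR adjusted p = 0.0589, 0.118 and 0.258).

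Because hepatocyte markers were lower in the same libraries, each probe was also set against the geometric mean of the 11 hepatocyte markers in its own library. By this ratio 10 of the 12 probes were lower than in controls after 14 d at 40 mg/mL in an exact permutation test with p adjusted over all probes under 0.05, against 0.551% of all probes tested. Without the 2 libraries of factor above 1.5 the count was 7 of 12, against 56 of all 17050 probes tested. Mup3_80493, Mup7_31616 and Mup19_32084 then no longer passed (exact permutation adjusted p = 0.087, 0.0569 and 0.0937). On this scale the median of all probes rose by 0.73 (log2), so a fall is a fall relative to hepatocyte markers. Mup7_82401 had a log2 ratio of 2.63 ± 0.26 (SD, n = 9) in the controls and 0.81 ± 0.98 (SD, n = 8) at 40 mg/mL. All 8 treated animals were below all controls, and the exact permutation p was 4.11e-05, the smallest these group sizes can give (adjusted p = 0.0036 over all probes). The ratio of Mup19_82400 fell by 1.81, with the same exact permutation p.

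For Mup15_31804 the log2 ratio was 1.43 lower at 40 mg/mL than in the controls, from 0.51 to -0.92, and 7 of 8 animals were below all controls (exact permutation adjusted p = 0.0047). For Mup20_63122 it went from -4.80 to -5.79, with 7 of 8 animals below all controls (exact permutation adjusted p = 0.00414). Mup19_29560 went from 3.01 to 2.05, with 6 of 8 below all controls (exact permutation adjusted p = 0.0134). Mup3_29559 did not pass on this scale: the ratio was 1.96 in controls and 1.17 at 40 mg/mL (exact permutation adjusted p = 0.0788). Mup19_68456 did not pass either, with a ratio of -4.84 in controls and -4.36 at 40 mg/mL (exact permutation adjusted p = 0.408).

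**Figure D3:**
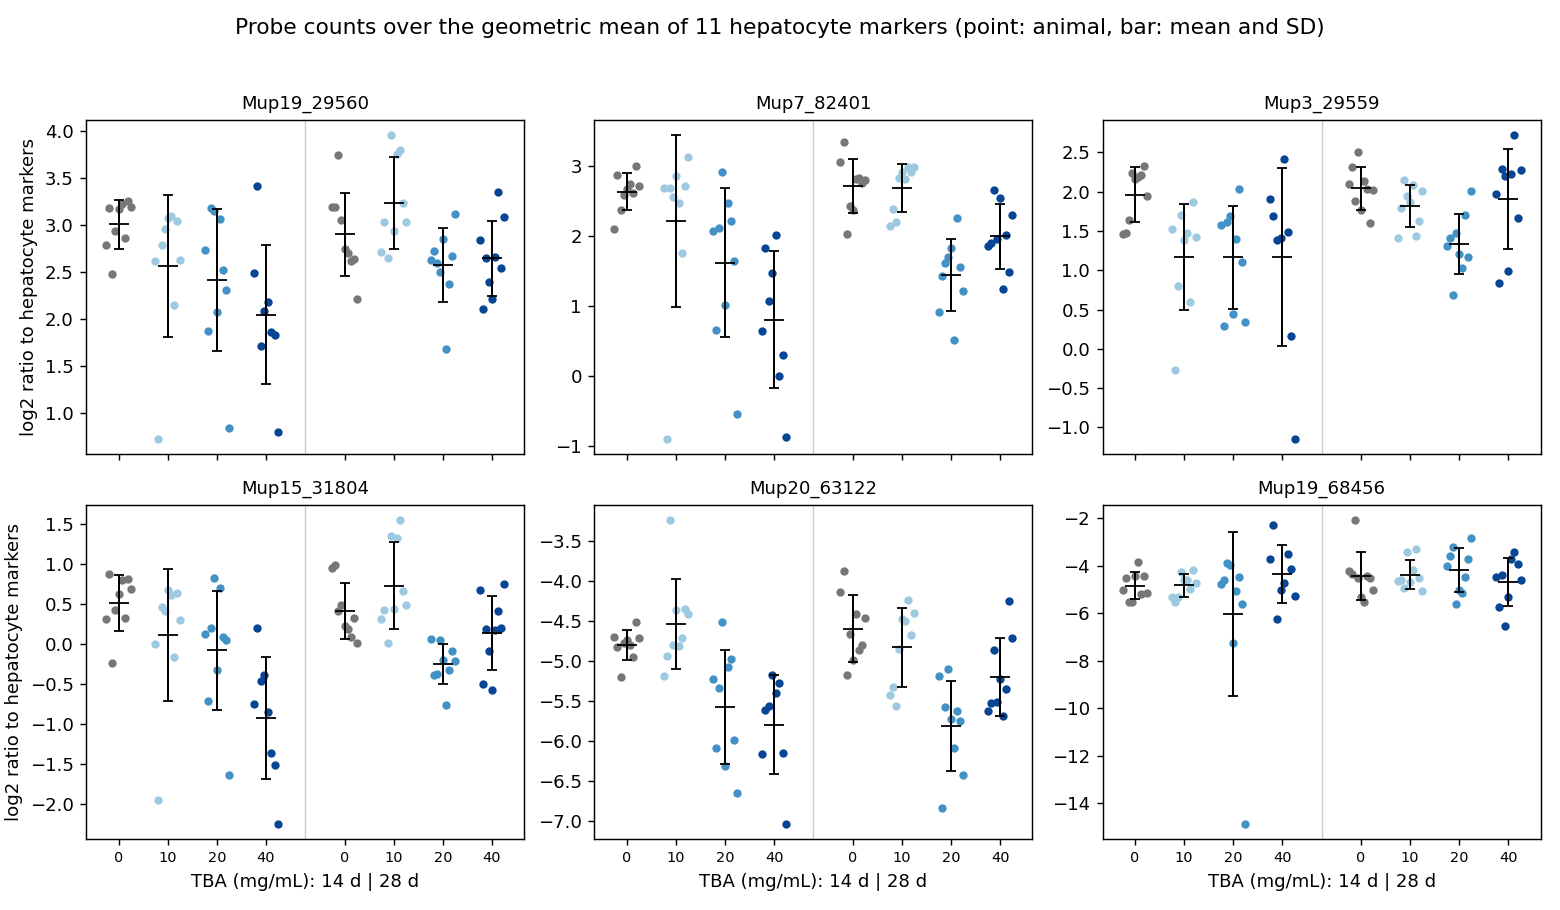
Log2 ratio of 6 probes to the geometric mean of 11 hepatocyte markers in every animal, by TBA dose in mg/mL at 14 d (left) and 28 d (right), with the mean and SD of each group. For Mup7_82401 all 8 animals at 40 mg/mL for 14 d lie below all controls, and for Mup3_29559 the groups overlap.

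The probes also shifted relative to each other. Mup7_82401 took 24.3% ± 1.55 (SD, n = 9) of the summed MUP counts in the 14 d controls and 16.2% ± 3.88 (SD, n = 8) at 40 mg/mL. Mup19_82400 took 15.1% ± 1.37 (SD, n = 9) and 10.0% ± 1.99 (SD, n = 8). In both probes all 8 treated animals lay below all controls, and the exact two-sided permutation p was 4.11e-05, the smallest possible, without adjustment for the 24 such tests. Mup19_29560 took 31.7% ± 2.34 (SD, n = 9) and 38.3% ± 9.58 (SD, n = 8), a difference that did not pass (unadjusted exact permutation p = 0.0629). Mup19_68456 rose from 0.144% ± 0.049 (SD, n = 9) to 0.552% ± 0.33 (SD, n = 8; unadjusted exact permutation p = 0.00136). Mup3_29559 took 15.5% ± 2.58 (SD, n = 9) and 21.2% ± 6.73 (SD, n = 8; unadjusted exact permutation p = 0.0354). The other 7 probes had unadjusted p-values above 0.05 at 14 d. After 28 d the share of Mup19_82400 was 16.0% ± 3.38 (SD, n = 9) in controls and 11.1% ± 4.09 (SD, n = 9) at 40 mg/mL (unadjusted exact permutation p = 0.0172), and the other 11 probes had p-values above 0.05. Shares within a total are bound together, so a lower share of 1 probe raises the others.

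The lower doses at 14 d gave no call. For 10 mg/mL edgeR called 0 of 12 probes, with 2 at an unadjusted p under 0.05 (4.32% of all probes), and DESeq2 and limma (voom with quality weights) also called 0. In this comparison 0% of all probes passed. The 2 were Mup3_29559 and Mup3_80493, with log2 fold changes of -0.72 ± 0.24 and -0.64 ± 0.29. Their medians were 2777 and 1118 CPM, against 4317 and 1691 CPM in the controls, with 5 and 7 of 9 animals below all controls.

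After 14 d at 20 mg/mL all 12 fitted values were below 0, from -0.91 to -0.27, with a median of -0.81 against 0.02 over all probes. EdgeR, DESeq2 and limma called 0 of them, and 0.0352% of all probes passed in edgeR. An unadjusted p under 0.05 was reached by 9 of 12, and by 6.05% of all probes. Mup7_82401 ranged from 731 through 3612 to 7321 CPM and Mup16_29047 from 64.5 through 168 to 365 CPM, with 7 of 9 animals below all controls for both. The lowest edgeR adjusted p was 0.325, for Mup3_29559.

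Across the 4 doses at 14 d, 11 of the 12 probes had a falling linear trend (edgeR adjusted p under 0.05), where 4.34% of all probes had one. The slopes of these 11 were -0.63 to -0.30 log2 per 10 mg/mL, and Mup19_68456 had -0.03 (edgeR adjusted p = 0.917). The step from 20 to 40 mg/mL at 14 d, a comparison added after the data were seen, was called lower in 4 of the 12 probes, against 0.663% of all probes. These were Mup15_31804 (log2 fold change -1.40 ± 0.28), Mup16_29047 (-1.22 ± 0.28), Mup19_29560 (-1.01 ± 0.24) and Mup7_82401 (-1.36 ± 0.36). The count fell to 0 with the covariate, and to 0 without the 2 libraries of factor above 1.5, the 40 mg/mL animals numbered 1 and 7.

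**Figure D4:**
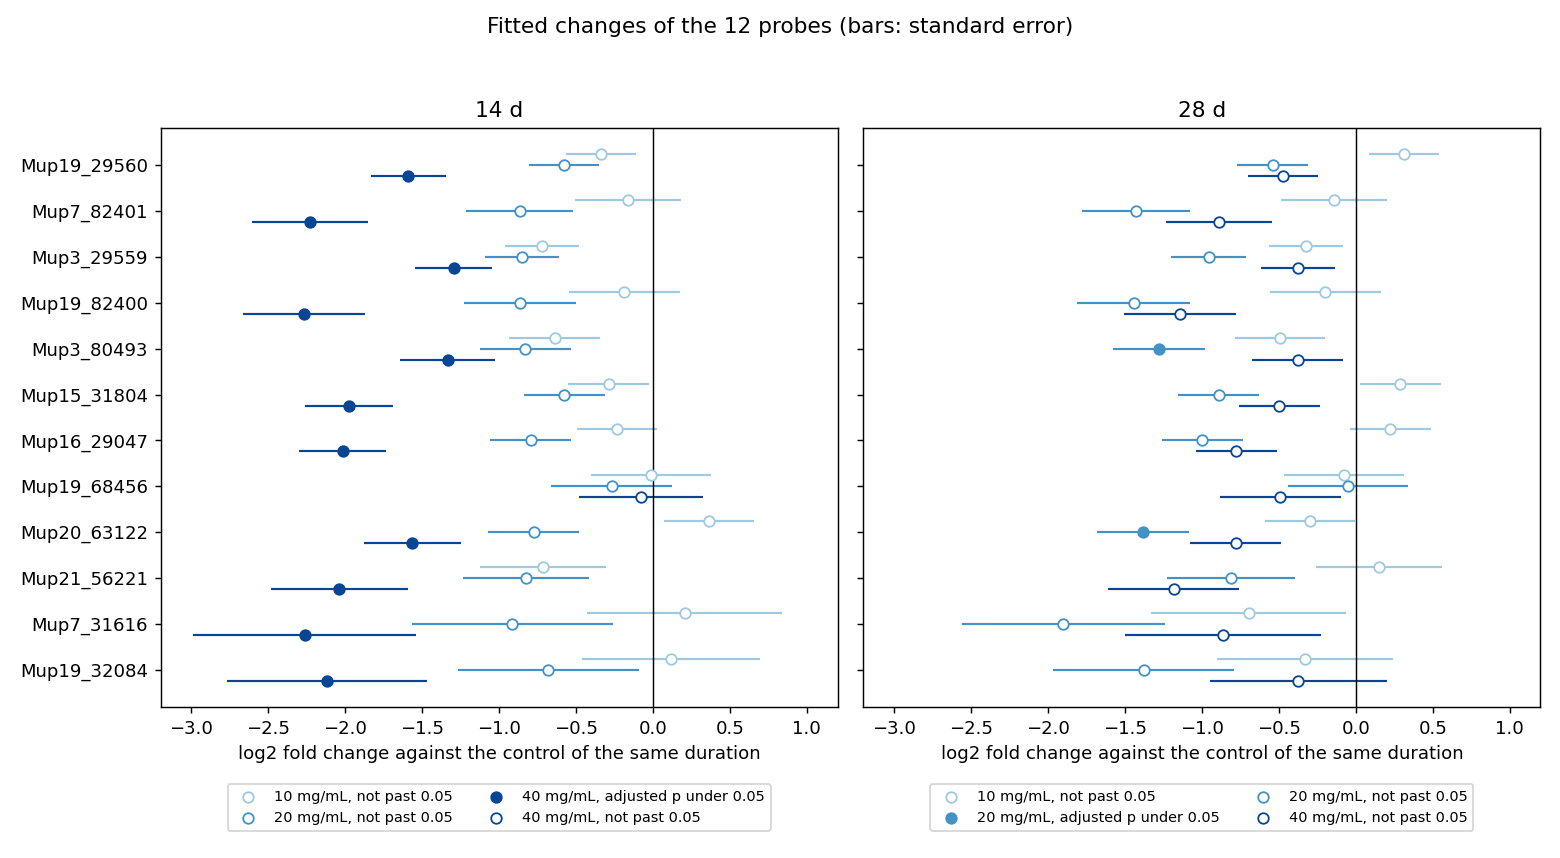
Fitted log2 fold change of each probe against the control of the same duration, with its standard error, at 14 d (left) and 28 d (right); filled points passed an edgeR adjusted p of 0.05. At 14 d the 40 mg/mL points lie left of the 20 mg/mL points for 11 of 12 probes, and at 28 d the 20 mg/mL points lie left of the 40 mg/mL points for 10 of 12.

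After 28 d at 20 mg/mL all 12 fitted values were below 0, with a median log2 fold change of -1.14 against 0.03 over all probes, and 2 of 12 probes were called lower, where 0.0938% of all probes were. Mup20_63122 ranged from 16.0 through 43.0 to 65.2 CPM in the 28 d controls and from 5.61 through 16.6 to 32.1 CPM at 20 mg/mL. The groups overlapped through 1 low control, and the log2 fold change was -1.38 ± 0.30 (edgeR adjusted p = 0.0497). Mup3_80493 ranged from 538 through 2054 to 2355 CPM in the controls and from 515 through 661 to 1443 CPM at 20 mg/mL, with a log2 fold change of -1.28 ± 0.30 and the same adjusted p in edgeR.

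Another 8 probes had an unadjusted p under 0.05 in that comparison, making 10 of 12, where 15.1% of all probes did. Mup7_82401 had medians of 7996 CPM in controls and 2317 CPM at 20 mg/mL (log2 fold change -1.43 ± 0.35, edgeR adjusted p = 0.0613), and Mup19_82400 had medians of 5009 and 1550 CPM (-1.44 ± 0.37, edgeR adjusted p = 0.0669). The count depended on which libraries entered: leaving out 1 library gave 0 to 8. Without the 28 d control numbered 3, the low control for Mup20, Mup7_82401 and Mup3_80493, 8 probes were called. Without the 20 mg/mL, 28 d animal numbered 7 the count was 7, and leaving out any of 15 other libraries gave 0. DESeq2 called 7 and limma 9, and with the log2 factor as a covariate 0 were called. The share of all probes called was not computed for these settings or for the fits with 1 library left out. Of the 9 libraries at 20 mg/mL for 28 d, 2 had a factor above 1.25, and 1 of the 9 controls did. Summed hepatocyte marker CPM was 13895 to 50329 at 20 mg/mL and 15688 to 68212 in the controls, and their part in the result was not tested.

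After 28 d at 40 mg/mL all 12 fitted values were again below 0 (median -0.64 against 0.03 over all probes). EdgeR called 0, where 0.00587% of all probes passed, DESeq2 called 0 and limma 4. The share of all probes called by limma was not computed. An unadjusted p under 0.05 was reached by 6 of 12 in edgeR, and by 6.32% of all probes. Mup16_29047 ranged from 245 through 329 to 494 CPM in the controls and from 125 through 212 to 283 CPM at 40 mg/mL, and 7 of 9 treated animals lay below all controls. Its log2 fold change was -0.78 ± 0.26 (edgeR adjusted p = 0.5001). Mup19_82400 had medians of 5009 and 1795 CPM (log2 fold change -1.14 ± 0.37, edgeR adjusted p = 0.408). Mup21_56221 had medians of 2.89 and 0.942 CPM (-1.18 ± 0.43, edgeR adjusted p = 0.531).

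Set against the hepatocyte markers at 28 d, the exact permutation test called 0 of the 12 probes and 0% of all probes lower at 40 mg/mL. The ratio was lower with an unadjusted exact permutation p under 0.05 for 5 of the 12, and for 0.815% of all probes. The lowest was 0.000658, for Mup19_82400, whose log2 ratio was 2.03 ± 0.43 (SD, n = 9) in controls and 1.04 ± 0.49 (SD, n = 9) at 40 mg/mL, with 7 of 9 treated animals below all controls.

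After 28 d at 10 mg/mL edgeR called 0 of the 12 probes, none had an unadjusted p under 0.05, DESeq2 and limma called 0, and 0% of all probes passed. The fitted values ran from -0.70 to 0.31, with 4 above 0. Mup19_29560 had a median of 9335 CPM against 7595 CPM in controls, and Mup16_29047 of 467 against 329 CPM, within overlapping ranges. The linear trend at 28 d was called in 0 of 12 probes by edgeR and in 0.129% of all probes. An unadjusted p under 0.05 was reached by 7 of 12, and by 7.89% of all probes. DESeq2 called 2 and limma 7, and their shares over all probes were not computed. The contrast of 40 with 20 mg/mL at 28 d was called in 0 of 12 by edgeR, DESeq2 and limma (0.00587% of all probes passed; 3 of 12 were at an unadjusted p under 0.05, as were 11.1% of all probes), and 10 of 12 fitted values were above 0. All comparisons within a duration share its control animals.

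Whether the effect of a dose differed between durations was tested in the same fit. At 40 mg/mL 11 of 12 probes had a smaller fall at 28 d than at 14 d, with a median difference of 1.12 log2. None passed by edgeR, DESeq2 or limma (0% of all probes; 8 of 12 at an unadjusted p under 0.05, where 6.34% of all probes were). Mup15_31804 had the lowest adjusted p, 0.222, with a difference of 1.48 ± 0.38 and a 95% interval of 0.73 to 2.22. At 20 mg/mL and 10 mg/mL 0 of 12 differed by the 3 tools, 0 and 1 of them at an unadjusted p under 0.05, and 0% of all probes passed. The 28 d and 14 d controls differed in 0 of 12 probes by the 3 tools, with none at an unadjusted p under 0.05 and 0% of all probes past the threshold.

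Probes varied together from animal to animal within groups. After group means were subtracted, log2 CPM of Mup7_82401 and Mup19_82400 had a Pearson correlation of 0.99 over the 71 animals, although they carry different gene names. Mup19_29560 correlated at 0.94 with Mup16_29047 and at 0.91 with Mup15_31804, but at 0.78 with Mup19_82400. The 2 Mup3 probes correlated at 0.91, and Mup7_31616 with Mup19_32084 at 0.89. Mup19_68456 correlated at 0.03 to 0.51 with the other 11. These are descriptions over animals that share the libraries' depth and scaling, and probes can share targets.

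**Figure D5:**
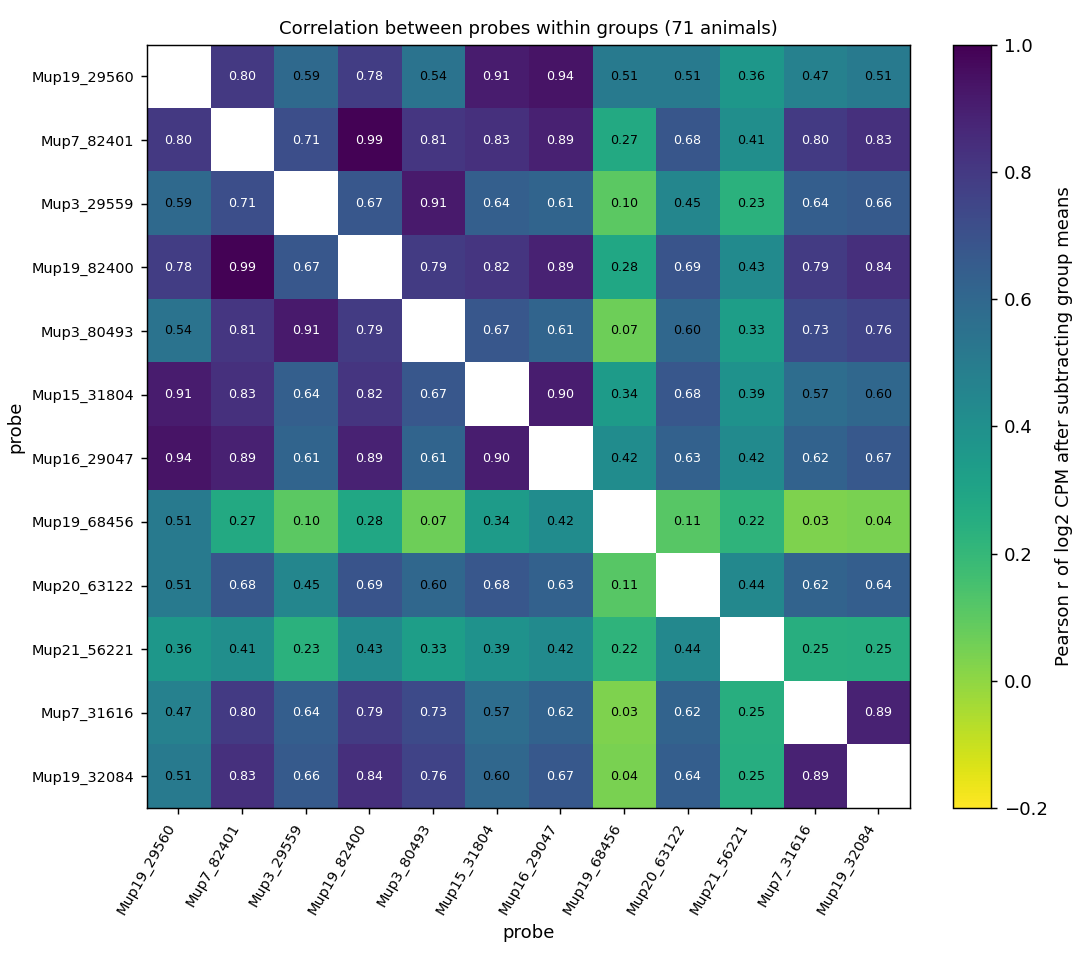
Pearson correlation of log2 CPM between probes after group means were subtracted, over 71 animals. Mup7_82401 and Mup19_82400 reach 0.99, and the row of Mup19_68456 stays between 0.03 and 0.51.

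The probes outside the 7 symbols that followed Mup19_29560 most closely over the 71 libraries were mostly other MUPs: Mup13_70516 (r = 0.95), Mup8_32263 (0.79), Mup13_29048 (0.79) and Mup4_82052 (0.78). The non-MUP among the 5 was Ces3a_62611 (0.87), a carboxylesterase of liver. After group means were subtracted the 5 closest were Mup13_70516 (0.90), Ces3a_62611 (0.79), Mup8_32263 (0.72), Mup12_82212 (0.71) and H2-Ab1_78621 (0.69), an MHC class II chain. Mup probes may share targets, and all these values share the libraries. Another 12 probes of the table carry a Mup symbol, and 6 of them passed the filter. Of these 6, 5 were lower after 14 d at 40 mg/mL. Mup13_70516, with a mean of 219192 counts per library, had a log2 fold change of -1.95 (edgeR adjusted p = 1.96e-05), and Mup4_82052 had -1.88 (edgeR adjusted p = 0.00208). Mup17_62847 did not pass (-1.57, edgeR adjusted p = 0.248).

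Genes of the growth hormone pathway, which is known to drive MUP transcription, were examined as a list of 16, of which 15 were tested. This list and those below were chosen with earlier results of these data known. Over all 17050 probes tested, 3.68% were lower and 484 probes were higher after 14 d at 40 mg/mL. Of the 15, 4 were lower there and none higher, with a median of -0.48 against 0.06 over all probes. They were Igf1, the circulating growth factor induced by growth hormone (-0.85 ± 0.14, edgeR adjusted p = 4.74e-05), Igfals, the subunit that stabilises it in plasma (-1.52 ± 0.30), Igfbp2, a binding protein (-1.21 ± 0.29), and Ghr, the growth hormone receptor (-0.62 ± 0.20). After 28 d at that dose 0 of the 15 passed in edgeR, and Igf1 had -0.34 ± 0.13 (edgeR adjusted p = 0.631).

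Of 20 tested genes known to be higher in male liver, 11 were lower and 1 higher at 40 mg/mL for 14 d, with a median of -1.41. Over all probes 3.68% were lower there. In that comparison Cyp7b1, an oxysterol hydroxylase, had -1.68 ± 0.33, and Cyp2f2, a cytochrome P450, had -1.41 ± 0.24. C8a and C8b, subunits of complement component 8, had -1.52 ± 0.26 and -1.62 ± 0.30. Cyp2d40 was the gene that rose (0.83 ± 0.25). At 20 mg/mL for 28 d 1 of the 20 was lower, where 0.0938% of all probes were. At 28 d 0 of the 20 passed in edgeR at 40 mg/mL, and Elovl3, a fatty acid elongase, had -2.04 ± 0.44 (edgeR adjusted p = 0.0641).

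Of 28 genes known to be higher in female liver, 3 were higher and 4 lower at 40 mg/mL for 14 d, with a median of 0.10. Over all 17050 probes, 484 were higher and 3.68% lower there. Sult1e1, the estrogen sulfotransferase, had 4.91 ± 1.32, Acot3, an acyl-CoA thioesterase, 1.89 ± 0.51, and Cyp17a1, a steroid hydroxylase, 1.21 ± 0.36. Cyp2c69 had -1.69 ± 0.41 and Prlr, the prolactin receptor, -0.87 ± 0.21. At 28 d 0 of the 28 passed in edgeR.

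Over all probes 3.68% were lower at 40 mg/mL for 14 d. Among 10 tested lipocalins outside the MUPs, 3 were lower and none higher there, with a median of -0.54. They were C8g, the lipocalin subunit of complement component 8 (-0.98 ± 0.16), Apom, a carrier of sphingosine 1-phosphate (-0.84 ± 0.20), and Rbp4, the retinol carrier (-0.52 ± 0.16). Of 23 hepatocyte and hormone-dependent transcription factors, 1 was lower in that comparison, near the share of all probes. It was Foxa3 (-0.83 ± 0.21), and the median of the 23 was 0.06, the same as over all probes. At 28 d 0 of the 10 and 0 of the 23 passed in edgeR at 40 mg/mL.

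The promoters of 5 members were read from RefSeq (GRCm38.p6), and the start here is the RefSeq start. For Mup3, Mup15, Mup19 and Mup21 it lies inside the gene as GENCODE places it, so the annotations differ on the start. Over the 250 bases before the start, on both strands, TATANAA was found in 4 of the 5 and in 10.4% of 32851 promoters, a spelling chosen after TATAAA (12.4% of promoters) was found in none of the 5. TTCNNNGAA, the spacing that STAT5 binds, was found in 7.02% of promoters and in none of the 5, TTGCNNAA in 9.56% and in none, and GTTAAT in 6.43% and in none. Mup7 was the searched member without TATANAA. Its window stops where its GENCODE gene begins, whereas the windows of the other 4 reach inside theirs. The windows therefore do not cover the same part of each promoter. The lack of a match in Mup7 cannot be read against its fall. A match or its lack describes only the letters of these windows. In all 4 members with TATANAA, it lies inside the gene as GENCODE places it. The 100 bases before the RefSeq start are shown for these 4, with TATANAA in capitals, to show where it lies. They are Mup15 at chr4:61439705-61439804, Mup19 at chr4:61782225-61782324, Mup3 at chr4:62087318-62087417 and Mup21 at chr4:62150842-62150941, all on the minus strand. 
Mup15: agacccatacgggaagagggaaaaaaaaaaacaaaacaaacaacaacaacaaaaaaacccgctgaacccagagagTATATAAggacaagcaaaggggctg
Mup19: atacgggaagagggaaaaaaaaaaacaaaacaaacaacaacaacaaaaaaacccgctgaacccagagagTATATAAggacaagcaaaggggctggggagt
Mup3: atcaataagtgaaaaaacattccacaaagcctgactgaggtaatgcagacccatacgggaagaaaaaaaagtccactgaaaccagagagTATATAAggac
Mup21: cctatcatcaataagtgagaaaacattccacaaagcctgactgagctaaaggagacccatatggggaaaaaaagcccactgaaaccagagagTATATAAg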

How the data were processed

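Liver RNA of 72 animals was measured with TempO-Seq. The authors deposited 1 table of whole-number counts per probe and library, with no normalization; bcl2fastq 2.20 and Bowtie are named in the submitters' processing notes, and the build and counting step are not given in the sources used here. Gene lists and members were chosen with earlier results of these data known. Animals were grouped by the labels' dose and duration, and 1 library under 100000 counts was left out.

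Probes were filtered with filterByExpr, scaled by TMM and fitted with edgeR 4.0.16 (quasi-likelihood, robust, 1 mean per group, R 4.3.3), with Benjamini-Hochberg adjustment over 17050 probes and a threshold of 0.05. CPM are TMM-scaled; log2 CPM uses a prior count of 2. SE is the log2 fold change over the root of F. Interval bounds use 1.96 SE. Contrasts were each dose against control, a linear trend per 10 mg/mL, the difference between durations, and, added after the data were seen, 40 against 20 mg/mL. Ratios to hepatocyte markers (counts plus 0.5) and shares of the summed counts of the 12 probes were compared between 40 mg/mL and controls by exact two-sided permutation. The ratios were adjusted over all probes tested and the shares were not adjusted. An adjustment over the member tests alone had been planned and its values seen before this change; under it some ratios at 28 d would have passed.

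All member probes were named, with up to 4 genes per list by smallest p at 40 mg/mL at 14 or 28 d, and the 5 non-member probes most correlated with the most abundant member. Genes named beyond this rule (Cyp17a1, Cyp2d40) were chosen after their values were seen. Coding sequences (CCDS-tagged transcripts, longest) came from GENCODE vM21 and were aligned with Biopython 1.88. Alternatives used DESeq2 1.42.0, limma 3.58.1 (voom with quality weights), other filters and scalings, and other sets of libraries. The edgeR fit was tested on simulated data drawn from a shared expression profile with chosen probes altered. That simulation did not carry the spread of scaling factors seen here, so it does not bear on the counts that moved with the factor. No pair of libraries agreed within sampling noise. Totals were 7.77 to 12.7 M counts per library.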

Additional observations from a re-analysis of the deposited data

Results flagged for a closer look

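A probe's lowest or highest animal was compared with the rest of its group by Dixon's test on log2 CPM. Of 96 groups of animals and probes tested, 18 had an animal apart from the others at the 95% level, and chance alone gives about 1 in 20. Of the 18, 8 came from 1 library and 7 from another.

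The 10 mg/mL, 14 d animal numbered 2 was lowest for Mup19_29560 (1510 CPM, group median 7885), Mup7_82401 (493.3 CPM, median 7009), Mup19_82400 (292 CPM, median 4011), Mup3_80493 (236 CPM, median 1118), Mup15_31804 (236 CPM, median 1350), Mup16_29047 (46.6 CPM, median 332), Mup7_31616 (0.0723 CPM, median 1.87) and Mup19_32084 (0.0723 CPM, median 1.63). Its library had a TMM factor of 1.26 and 0.456% of its counts on the 12 probes.

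The 28 d control numbered 3 was lowest for Mup7_82401 (2345 CPM, median 7996), Mup19_82400 (1407 CPM, median 5009), Mup3_80493 (538 CPM, median 2054), Mup20_63122 (16.0 CPM, median 43.0), Mup7_31616 (0.0816 CPM, median 2.77) and Mup19_32084 (0.245 CPM, median 2.06). It was highest for Mup19_68456 (138 CPM, median 47.6). Its library had a factor of 1.37.

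The other animals apart were each so for 1 probe. The 20 mg/mL, 14 d animal numbered 9 had 0 CPM of Mup19_68456 (median 35.2). The 10 mg/mL, 14 d animal numbered 3 had 123 CPM of Mup20_63122 (median 38.6). The 10 mg/mL, 28 d animal numbered 2 had 0.229 CPM of Mup7_31616 (median 1.56).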

How the results depend on the processing

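No paired analysis was possible because the labels give no replicate numbers that link animals across groups. No called value changed sign under any alternative. At 40 mg/mL for 14 d the count of 11 lower probes became 6 with the log2 factor as a covariate, 6 without libraries of factor above 1.25 (added after the data were seen) and 7 of 7 with probes summed per symbol. The trend at 14 d (11) became 6, 7 and 7 under the same settings. At 20 mg/mL for 28 d the count of 2 became 0 with DESeq2 size factors, with no filter, with the covariate and with the shallow library kept, 5 without libraries of factor above 1.5, 6 with a filter at a mean of 5 CPM or with the groups fitted alone, 7 in DESeq2 or without libraries of factor above 1.25, 9 in limma, 11 by unadjusted exact permutation, and 0 to 8 when 1 library was left out. At 40 mg/mL for 28 d the count of 0 became 1 with the groups alone, 4 in limma and 7 by unadjusted exact permutation. The 28 d trend (0) became 2 with the groups alone, 2 in DESeq2 and 7 in limma. Unadjusted exact permutation gave 3 probes at 10 mg/mL and 10 at 20 mg/mL for 14 d. For 40 against 20 mg/mL at 14 d the count of 4 became 0 with the covariate, without libraries of factor above 1.5 and with the groups alone, 2 with the shallow library kept, 8 by unadjusted exact permutation, and 1 to 5 when 1 library was left out (1 without the 20 mg/mL animal numbered 6, or the 40 mg/mL animal numbered 1, 7 or 8). On centred log ratios, shares at 28 d gave 2 probes lower and 1 higher in place of 1 and 0. The cause of these changes was not tested. For these alternatives the share of all probes called was not computed. Medians under 20 counts limit what could be seen for Mup7_31616 and Mup19_32084. Mup21_56221 also had such medians in some groups, 10 counts at 40 mg/mL for 14 d and 11 at 40 mg/mL for 28 d.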

Other observations

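Mup17_62847, a MUP probe outside the 7 symbols, split the animals of most groups. In the 14 d controls its counts ranged from 25 through a median of 784 to 2247, with 3 of 9 animals under 100 counts. At 28 d the controls ranged from 30 to 2150 with 1 of 9 under 100, and at 40 mg/mL all 9 animals lay between 254 and 1509. The limit of 100 was chosen after the values were seen.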
